A study of Mus musculus with 5 samples.

Results

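The 10 genes described here are brakes and switches of the cell cycle: the kinase inhibitors Cdkn1a (p21), Cdkn1b (p27), Cdkn2a (p16INK4a and p19ARF), Cdkn2b (p15) and Cdkn2c (p18), the retinoblastoma gene Rb1, the tumour suppressor Trp53 (p53) with its inhibitor Mdm2, and the D cyclins Ccnd1 and Ccnd2. They were found by symbol through the NCBI gene number of each transcript, and they are 10 of the 17923 genes listed in at least 1 library. They had 13 transcript rows among 22725, and their values were summed per gene except where single transcripts are named. All 10 passed the filter on low counts, with at least 30 counts in every library.

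RNA was sequenced from immortalized cell lines grown out of mouse thyroid tumours that carry BRAFV600E, a constantly active form of the BRAF kinase. The study set lines with an intact Ctnnb1, the gene of β-catenin (BVE-Ctnnb1wt), against lines from tumours that also carried a deletion of Ctnnb1 (BVE-Ctnnb1null), and both groups hold BRAFV600E. The 2 BVE-Ctnnb1wt libraries (here wt 1 and wt 2) came from 1 line, BVE, at passage 20, without thyroid-stimulating hormone (TSH) for wt 1 and with it for wt 2. The 3 BVE-Ctnnb1null libraries came from the lines BVECTN_4 at passage 8 without TSH (null 1), BVECTN_4A at passage 11 (null 2) and BVECTN_5 at passage 7 (null 3), with no TSH state in the labels of null 2 and null 3. The labels do not say whether BVECTN_4 and BVECTN_4A came from the same tumour. The culture protocol gives other passage numbers, about 25 for BVE-Ctnnb1wt and 20 for BVE-Ctnnb1null cells, and a medium with TSH at 4 mU/mL. The promoter that drove the recombination is not given in the sources used here. Effects of the genotype, of the line and of its passage cannot be told apart, and p-values measure the spread between lines and between cultures of 1 line. Total estimated counts were 30432737 and 30713079 in wt 1 and wt 2, and 29929677, 29360002 and 29415980 in null 1, null 2 and null 3.

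D cyclins with CDK4 or CDK6 phosphorylate the retinoblastoma protein, which then releases E2F factors and lets a cell enter S phase. The INK4 proteins (p15, p16 and p18) block CDK4 and CDK6, and the CIP/KIP proteins (p21 and p27) bind cyclin and kinase together. Cdkn2a encodes a pair of unrelated proteins in different reading frames, of which p16INK4a guards the retinoblastoma protein and p19ARF holds back MDM2, the ligase that destroys p53. In thyroid and other epithelia an active BRAF can drive division or, through these brakes, senescence.

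The Cdkn2a transcripts are shown first because the widest differences among these libraries lay in this gene. They share 575 bases, 64.2% of the p19ARF and 67.5% of the p16INK4a transcript in the GENCODE annotation of GRCm38, and differ in the first exon. The coding parts of these first exons, on the minus strand of GRCm38 at chr4:89294334-89294523 for p19ARF (190 bases) and chr4:89281986-89282111 for p16INK4a (126 bases), read as follows.
p19ARF first exon: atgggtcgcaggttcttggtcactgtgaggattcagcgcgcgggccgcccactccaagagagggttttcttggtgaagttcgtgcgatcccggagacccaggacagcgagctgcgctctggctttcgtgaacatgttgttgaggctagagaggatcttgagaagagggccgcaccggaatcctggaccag
p16INK4a first exon: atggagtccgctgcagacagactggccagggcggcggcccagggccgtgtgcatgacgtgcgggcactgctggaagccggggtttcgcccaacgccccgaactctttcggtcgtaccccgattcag

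Each transcript has a start of its own, and the sequence before each is printed from RefSeq (GRCm38.p6, minus strand), chr4:89294654-89294869 for p19ARF and chr4:89282193-89282442 for p16INK4a. Capitals mark the E2F motif. For p19ARF the 34 bases nearest the RefSeq start are left out, because other annotated transcripts begin there.
p19ARF promoter: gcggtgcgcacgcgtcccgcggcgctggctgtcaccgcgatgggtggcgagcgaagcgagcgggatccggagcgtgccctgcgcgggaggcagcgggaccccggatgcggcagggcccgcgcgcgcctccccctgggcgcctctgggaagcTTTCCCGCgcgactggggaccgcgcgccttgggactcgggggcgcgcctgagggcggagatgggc
p16INK4a promoter: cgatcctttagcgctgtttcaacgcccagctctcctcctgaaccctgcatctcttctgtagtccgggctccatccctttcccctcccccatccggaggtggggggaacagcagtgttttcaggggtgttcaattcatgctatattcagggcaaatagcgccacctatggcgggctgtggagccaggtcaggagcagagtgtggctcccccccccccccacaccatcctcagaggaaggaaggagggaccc
The 250 bases before the p19ARF start held 1 E2F motif (TTTCCCGC, TTTGGCGC or TTTCGCGC on either strand), 99 bases before the start, 2 GC boxes (GGGCGG on either strand) and 40 CG pairs. The 250 bases before the p16INK4a start held neither motif and 7 CG pairs. Of all 32851 RefSeq windows of this length, 1.53% held the E2F motif and 32.74% a GC box, and the median was 6 CG pairs. The E2F motif letters were not in the other 9 windows of these genes (7 of the 10 genes had windows, 10 in all). A match of letters is a description and not a binding site.

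As a check of the labels, Ctnnb1 RNA was present in every library, at an FPKM (fragments scaled to the length of the transcript and the depth of the library) of 59.29 and 73.75 in wt 1 and wt 2 and of 124.6, 196.3 and 117.8 in null 1, null 2 and null 3. The FPKM was higher in every null library, a pattern that 35.8% of all 13255 genes tested had. A loss of Ctnnb1 RNA was thus not seen, but a value for a whole transcript cannot show which exons are left. In CPM after TMM normalization (counts scaled to library size and composition) the groups overlapped, with 251.1 and 356.4 in wt 1 and wt 2 and 418.2, 572.2 and 343.7 in null 1, null 2 and null 3, and edgeR gave Ctnnb1 a log2 fold change of 0.55 ± 0.44 (SE) with an adjusted p of 0.517. That change was 0.24 without wt 1, 0.24 without null 2 and 1.10 in limma on log2(FPKM + 0.1). The groups are therefore named by their labels, and "null library" means a library labelled BVE-Ctnnb1null.

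Of the 10 genes, the widest differences lay among the null libraries. In these bulk samples fewer cells of a type and less RNA per cell cannot be told apart. Cdkn2a was the highest of the 10 genes in null 3 and the lowest in null 2, Cdkn1a had its highest level in null 1, and Cdkn2c was high in null 2 and null 3 only. Rb1 and Mdm2 were the 2 genes whose FPKM was higher in every null library than in both wt libraries, a share that stands beside 35.8% of all 13255 genes tested for this pattern. None of the 10 had a lower FPKM in every null library, beside 7.21% of all genes. With edgeR (quasi-likelihood test over all 5 libraries, p-values adjusted by Benjamini-Hochberg over 13255 genes), 0 of the 10 were called at an adjusted p under 0.05, beside 0% of all genes. At an unadjusted p under 0.05, 3 were higher in the null libraries (Cdkn2a, Mdm2 and Rb1), beside 12.4% of all genes, and 0 were lower, beside 6.07%. DESeq2 called Cdkn2a and Rb1 higher and none lower, beside 8.47% and 3.7% of all genes, and limma on log2 FPKM called none of the 10. The median log2 fold change of the 10 was 0.29, next to 0.30 over all genes tested. Without wt 2 the median of the 10 was 0.07 and without null 3 it was 0.69, next to 0.32 and 0.16 over all genes, and it was 0.48 without wt 1 and 0.15 without null 2. Over all genes the median was 0.21 with the size factors of DESeq2, and in limma on log2(FPKM + 0.1) it was 0.61 with a filter on low FPKM and 0.42 without it, so changes near 0 depend on the fit.

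**Figure D1:**
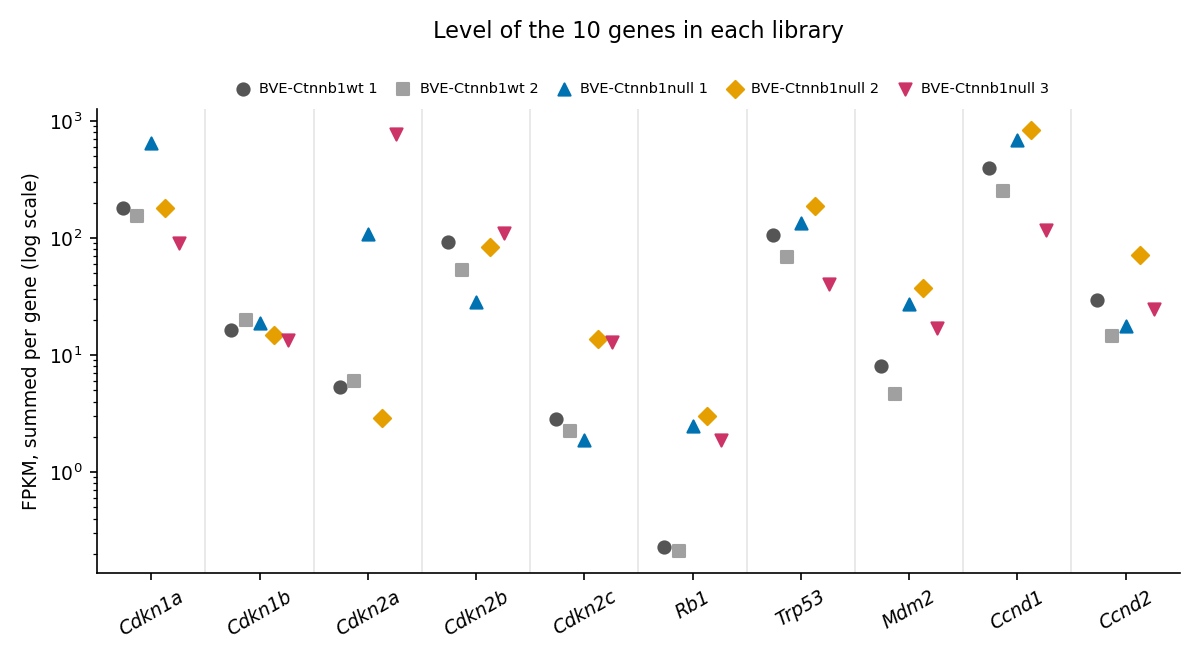
FPKM summed per gene (vertical axis, log scale) for the 10 genes in the 2 BVE-Ctnnb1wt and 3 BVE-Ctnnb1null libraries, 1 point per library. Rb1 and Mdm2 are higher in all 3 null libraries, while Cdkn2a runs from 2.91 in null 2 to 771.4 in null 3.

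Cdkn2a had an FPKM of 5.34 in wt 1 and 6.03 in wt 2, and of 107.4 in null 1, 2.91 in null 2 and 771.4 in null 3. Null 1 and null 3 were far above both wt libraries, at 18.9 and 136 times their mean, and null 2 was below both, at 0.512 of it. The levels correspond to 149 and 170 counts in the wt libraries and to 2900, 78 and 20381 counts in null 1, null 2 and null 3, so depth does not limit this order. For Cdkn2a edgeR gave a log2 fold change of 5.05 ± 2.02 (SE) with an unadjusted p of 0.0424 and an adjusted p of 0.256. It was 2.69 without null 3 and 1.10 with a replicate block, and the groups overlapped. Among all genes listed in a library, Cdkn2a stood at percentile 99.2 of FPKM in null 3 and at percentile 42.0 in null 2. Of 8 epithelial markers, 5 (Epcam, Cdh1, Krt19, Cldn4 and Cldn7) were likewise above both wt libraries in null 1 and null 3 and below both in null 2. Epcam, a surface adhesion protein, had an FPKM of 5.04 and 4.61 in wt 1 and wt 2 and of 152.1, 0 and 59.6 in null 1, null 2 and null 3, and the tight junction gene Cldn4 had 20.25 and 27.82 against 1087, 0.19 and 194.1. Unlike Cdkn2a, these 5 were higher in null 1 than in null 3. Of 11 mesenchymal markers, 9 had their highest FPKM in null 3, Thy1, Dcn and Postn among them (88.47, 84.66 and 101.6), and Vim and Lum did not. These counts of markers were made after seeing the data, and the part of either list in the level of Cdkn2a was not tested.

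The p19ARF transcript was listed in every library, and the p16INK4a transcript only in null 1 and null 3. The FPKM of p19ARF was 5.34, 6.03, 93.96, 2.91 and 627.36 in wt 1, wt 2, null 1, null 2 and null 3. That of p16INK4a was 13.48 in null 1 and 144.07 in null 3. The p19ARF transcript was the more abundant of the pair in every library. By estimated counts p16INK4a took 11.57% of the gene in null 1 (Wilson 95% interval 10.44 to 12.77) and 17.31% in null 3 (16.8 to 17.84). These intervals cover counting error only, and the division of reads over the shared 575 bases is an estimate by the counting program of the authors. With a total of 149, 170 and 78 counts in the libraries where p16INK4a was not listed, a smaller share of it could have gone unseen.

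**Figure D2:**
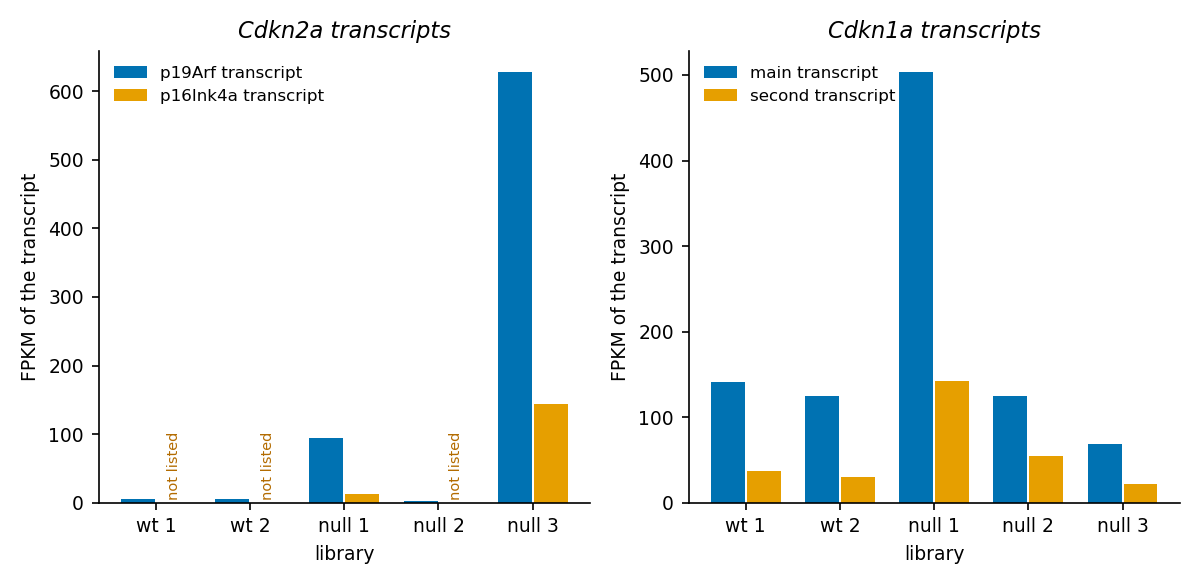
FPKM of single transcripts (vertical axes) in the 5 libraries, with the p19ARF and p16INK4a transcripts of Cdkn2a on the left and the main and second transcripts of Cdkn1a on the right. The p16INK4a transcript is listed in null 1 and null 3 only, and the second transcript of Cdkn1a is the smaller one in every library.

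Cdkn2b, the neighbour of Cdkn2a, had another order of libraries. Its FPKM was 92.08 and 53.72 in wt 1 and wt 2, and 28.4, 82.87 and 109.3 in null 1, null 2 and null 3. Null 1, with the second highest Cdkn2a, had the lowest Cdkn2b, and null 3 had the highest FPKM of both. In CPM after TMM normalization Cdkn2b was highest in wt 1, at 152.5 against 124.8 in null 3. For Cdkn2b edgeR gave a log2 fold change of -0.58 ± 0.59 (SE) with an adjusted p of 0.609, and the groups overlapped. That change was -0.25 without null 1, -0.33 without wt 1, -0.92 without wt 2 and -0.99 without null 3, and -0.14 in limma on log2(FPKM + 0.1). Mtap, the gene on the other side of Cdkn2a, which encodes an enzyme of methionine salvage, had an FPKM of 84.8 and 41.8 in wt 1 and wt 2 and of 17.01, 119.5 and 86.62 in null 1, null 2 and null 3. Both neighbours thus had reads in null 2, the library with the lowest Cdkn2a. Dmrta1, a transcription factor gene further along, was at an FPKM of 0.05 or less in every library.

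Cdkn2c, whose p18 protein also blocks CDK4 and CDK6, had an FPKM of 2.86 and 2.25 in wt 1 and wt 2 and of 1.87, 13.67 and 12.98 in null 1, null 2 and null 3. Null 2 and null 3 were 5.35 and 5.08 times the wt mean, while null 1 was below both wt libraries. For Cdkn2c edgeR gave a log2 fold change of 1.27 ± 0.92 (SE) with an adjusted p of 0.475. Cdkn2a was thus high in null 1, Cdkn2c in null 2 and both in null 3. By estimated counts p19ARF, which is not an INK4 protein, took 88.43% of Cdkn2a in null 1 and 82.69% in null 3.

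Cdkn1a, a classical p53 target that binds cyclin-CDK complexes, was among the most abundant of the 10 genes. Its FPKM was 178.3 and 154.5 in wt 1 and wt 2 and 645.4, 179.8 and 90.81 in null 1, null 2 and null 3. Null 1 stood at 3.88 times the wt mean, null 2 was next to wt 1, and null 3 was below both wt libraries. In CPM after TMM normalization null 2 was below both wt libraries too, with 283.1 against 409.2 and 406.4 in wt 1 and wt 2. For Cdkn1a edgeR gave a log2 fold change of 0.36 ± 0.86 (SE) with an adjusted p of 0.843, and it turned to -0.96 without null 1. The 8 epithelial markers were highest in null 1 as well, with a summed FPKM of 13360 against 1098 and 1774 in wt 1 and wt 2, and their part in this value was not tested.

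A pair of Cdkn1a transcripts was listed in every library, and their starts are printed because p53 is known to act on this gene. The sequences are from RefSeq (GRCm38.p6, plus strand), chr17:29090729-29090975 before the start of the second transcript, without the 3 bases nearest the start, and chr17:29093519-29093768 before that of the main transcript. Capitals mark a match to the p53 element.
Cdkn1a second transcript promoter: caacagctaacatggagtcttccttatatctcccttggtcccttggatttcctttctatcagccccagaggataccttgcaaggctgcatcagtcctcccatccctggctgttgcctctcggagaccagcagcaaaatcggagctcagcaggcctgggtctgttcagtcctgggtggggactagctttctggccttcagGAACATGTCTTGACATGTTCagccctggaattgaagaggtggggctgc
Cdkn1a main transcript promoter: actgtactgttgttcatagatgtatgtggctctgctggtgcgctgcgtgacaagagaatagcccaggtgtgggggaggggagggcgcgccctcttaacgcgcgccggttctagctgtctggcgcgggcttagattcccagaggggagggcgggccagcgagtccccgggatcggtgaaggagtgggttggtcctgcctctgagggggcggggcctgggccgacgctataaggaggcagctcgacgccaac
The match, of 20 bases with 1 mismatch to the p53 element (searched with at most 1 mismatch), begins 51 bases before the start of the second transcript. Such a match lay in 25 of all 32851 windows, or 0.08%, and in none of the other 9 windows of these genes. The second transcript took 20.91% and 19.43% of the counts of Cdkn1a in wt 1 and wt 2, and 22.29%, 30.73% and 24.11% in null 1, null 2 and null 3. Its share was thus higher in every null library, with the highest value in null 2 and not in null 1, where the gene was most abundant. Reads that fit both transcripts, which differ in length by 26 bases, were divided by the counting program, so the shares are estimates and were not tested.

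Cdkn1b, whose p27 protein holds cyclin E and CDK2, varied least among the 10 genes. Its FPKM was 16.2 and 20.05 in wt 1 and wt 2 and 18.73, 14.84 and 13.47 in null 1, null 2 and null 3, and the groups overlapped. In CPM after TMM normalization it was 46.85 and 66.51 in the wt and 41.83, 29.41 and 26.85 in the null libraries, so on this scale every null library was lower, beside 17.3% of all genes. Cdkn1b was the only one of the 10 for which the order of the groups on the 2 scales differed in this way. For Cdkn1b edgeR gave a log2 fold change of -0.79 ± 0.45 (SE) with an adjusted p of 0.375, and limma on log2(FPKM + 0.1) a change of -0.21.

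Rb1, whose protein is the target of the D cyclin kinases, was the lowest of the 10 genes in both wt libraries. Its FPKM was 0.23 and 0.21 in wt 1 and wt 2 and 2.46, 3.03 and 1.87 in null 1, null 2 and null 3. The groups were far apart, with a null mean 11.2 times the wt mean (2.453 ± 0.58, SD, n = 3, against 0.22 ± 0.0141, SD, n = 2). These values rest on 33 and 30 counts in the wt and on 347, 419 and 259 counts in the null libraries. For Rb1 edgeR gave a log2 fold change of 2.91 ± 0.69 (SE), an unadjusted p of 0.00425 and an adjusted p of 0.187, and limma on log2(FPKM + 1) a change of 1.49. DESeq2 called it at an adjusted p of 0.000201, and over the alternatives the adjusted p ran from 0.000201 to 0.841. The two-sided exact permutation test of FPKM over the 5 libraries gave p = 0.1, the smallest that 2 against 3 libraries allow.

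Mdm2, both the inhibitor and a transcriptional target of p53, was higher in every null library in FPKM and in CPM after TMM normalization, as was Rb1, beside 22.5% of all genes in CPM. Its FPKM was 8.01 and 4.63 in wt 1 and wt 2 and 27.42, 37.31 and 17.12 in null 1, null 2 and null 3, a null mean of 4.32 times the wt mean. For Mdm2 edgeR gave a log2 fold change of 1.55 ± 0.53 (SE), an unadjusted p of 0.0233 and an adjusted p of 0.221, and it lay between 1.19 and 1.79 when single libraries were left out. The two-sided exact permutation test of FPKM gave p = 0.2. The summed counts of the other 9 genes were whole in every library (tolerance 0.05 counts) and those of Mdm2 were whole in 1 of 5, so some reads of Mdm2 may have been divided with another gene.

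Transcript length moved with the fold change over all genes, and Rb1 and Mdm2 lie on its upper side. In 4 length classes of near equal size, formed after seeing the data, the median log2 fold change was -0.40, 0.02, 0.45 and 1.13 from the shortest to the longest. Every null library had the higher FPKM for 14.4%, 26.6%, 40.7% and 61.6% of the genes of these classes. Rb1 (4642 bases) and Ccnd2 were in the longest class and Mdm2 (3027 bases) and Ccnd1 in the next. Rb1's log2 fold change was above that of 87.9% of its class, Mdm2's above 80.1% and Cdkn2a's, in the shortest class, above 97.8%. Ccnd2 was above 20.9% of its class and Cdkn1b, in the second shortest, above 18.7%. The part of transcript length in these values was not tested.

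**Figure D3:**
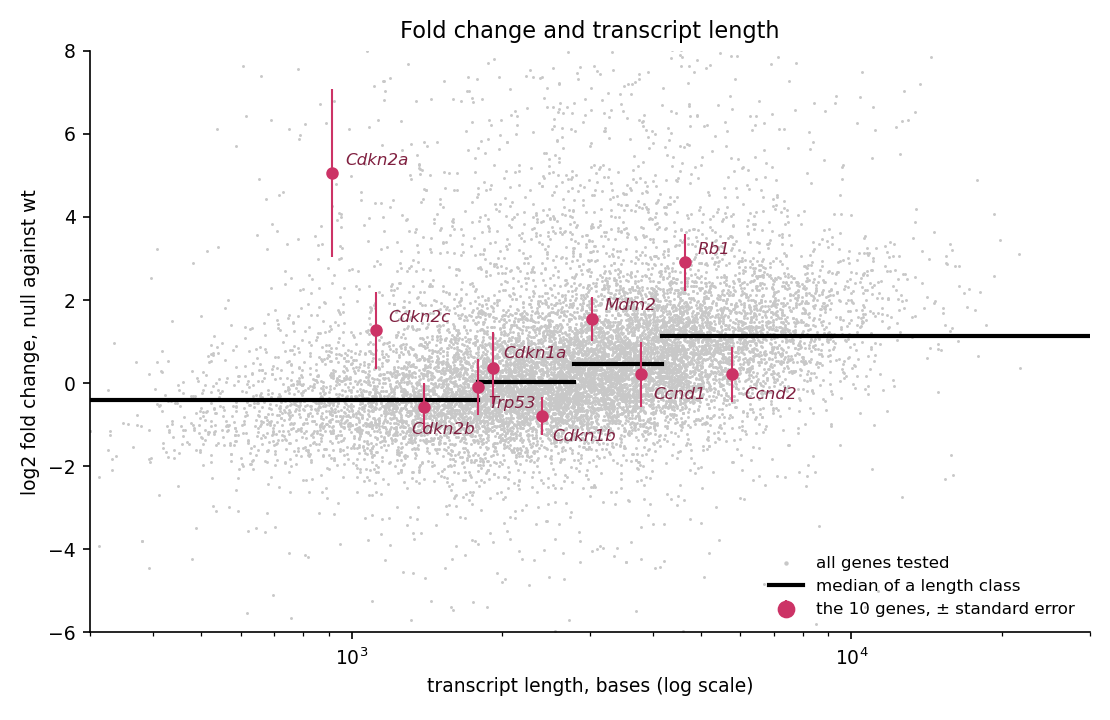
Log2 fold change of the null against the wt libraries (vertical axis) by transcript length in bases (horizontal axis, log scale), with all genes in grey, the median of each of 4 length classes as black lines and the 10 genes in red with standard errors. The axes leave out 176 of the 13255 genes, and the medians climb from -0.40 to 1.13, with Rb1, Mdm2, Cdkn1a, Cdkn2a and Cdkn2c above the line of their class.

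Trp53 had an FPKM of 106.9 and 68.2 in wt 1 and wt 2 and of 134.5, 186.4 and 40.05 in null 1, null 2 and null 3. In FPKM null 1 and null 2 were above both wt libraries and null 3 below both. In CPM after TMM normalization Trp53 was at 228.3 and 167.5 in wt 1 and wt 2 and at 222.7, 273.7 and 59.3 in null 1, null 2 and null 3, so null 1 lay within the wt range on this scale. Its log2 fold change was -0.10 ± 0.67 (SE) in edgeR with TMM scaling (adjusted p 0.946), 0.23 in limma on log2(FPKM + 0.1) and 0.29 without null 3, so no direction can be given. The order of the null libraries for Trp53, from null 2 over null 1 to null 3, was not that of its target Cdkn1a, which was highest in null 1. Mdm2 had the same order as Trp53, but so had Rb1, Ccnd1 and Ctnnb1. In null 3 the FPKM of Trp53 was below both wt libraries and that of Mdm2 above both. An alternatively spliced Trp53 transcript, 96 bases longer than the main one, took 4.91% and 10.8% of the gene's counts in wt 1 and wt 2 and 12.21%, 11.81% and 15.46% in null 1, null 2 and null 3. Its Wilson 95% interval was 9.84 to 11.82% in wt 2 and 11.19 to 12.47% in null 2, so these neighbours in the order overlapped by counting error alone.

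Ccnd1, the D cyclin that growth signals and β-catenin are known to induce, was the most abundant of the 10 genes in 4 of the 5 libraries. Its FPKM was 393.3 and 249.7 in wt 1 and wt 2 and 683.1, 831.9 and 116.5 in null 1, null 2 and null 3. Null 1 and null 2 were above and null 3 below both wt libraries, also in CPM after TMM normalization. For Ccnd1 edgeR gave a log2 fold change of 0.21 ± 0.79 (SE) with an adjusted p of 0.903, and it was -0.26 without null 2. Ccnd2 had an FPKM of 29.3 and 14.54 in wt 1 and wt 2 and of 17.68, 72.12 and 24.5 in null 1, null 2 and null 3. Only null 2 lay outside the range of the wt libraries for Ccnd2 in FPKM, and edgeR's log2 fold change of 0.21 ± 0.67 (SE, adjusted p 0.883) was -0.68 without it. Ccnd3, the remaining D cyclin, had an FPKM of 35.48 and 45.4 in wt 1 and wt 2 and of 151.6, 42.8 and 143 in null 1, null 2 and null 3. The D cyclins thus led in different lines, with Ccnd1 and Ccnd2 highest in null 2 and Ccnd3 highest in null 1 and null 3.

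By FPKM the order of the 10 genes was nearly the same in the wt libraries, Ccnd1, Cdkn1a, Trp53, Cdkn2b and then, with Cdkn1b and Ccnd2 exchanged and Mdm2 and Cdkn2a exchanged, down to Cdkn2c and Rb1. The wt means of Mdm2 (6.32 ± 2.39, SD, n = 2) and Cdkn2a (5.685 ± 0.488, SD, n = 2) lay within their spread, as did those of Ccnd2 (21.92 ± 10.4, SD, n = 2) and Cdkn1b (18.12 ± 2.72, SD, n = 2), and of Trp53 (87.53 ± 27.3, SD, n = 2) and Cdkn2b (72.9 ± 27.1, SD, n = 2). In the null libraries the spread was larger than the mean for Cdkn2a (293.9 ± 417, SD, n = 3) and close to it for Cdkn1a (305.4 ± 298, SD, n = 3). The ratio of the highest to the lowest null library was 265 for Cdkn2a, 7.31 for Cdkn2c, 7.14 for Ccnd1 and 7.11 for Cdkn1a, against 1.39 for Cdkn1b and 1.62 for Rb1. Between wt 1 (without TSH) and wt 2 (with TSH), with 1 library each and no replicate check, none of the 10 differed by more than 2-fold in CPM after TMM normalization, while in FPKM Ccnd2 was 2.02 times as high in wt 1. Of 11451 genes with at least 1 CPM in one of the pair, 6.92% were more than 2-fold above and 6.45% more than 2-fold below. The largest log2 ratios of wt 1 to wt 2 among the 10 were 0.81 for Ccnd2 and 0.59 for Mdm2, and the lowest was -0.51 for Cdkn1b.

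The other genes of the pathway came from 8 lists with 77 genes, all tested. With edgeR and the same adjustment 0 of them were called, and 19 had an unadjusted p under 0.05, all higher in the null libraries, beside 12.4% of all genes. Counts of genes with a higher FPKM in every null library stand beside 35.8%, those in CPM after TMM normalization beside 22.5%, and list medians beside 0.30 over all genes. The medians were 1.24 for other brakes and pocket proteins, 0.77 for G1 cyclins and kinases, 1.73 for neighbours and regulators of Cdkn2a and 1.52 for p27 turnover. That of the G1 cyclins and kinases was 0.47 without null 2 and 0.50 without wt 1, and 1.25 in limma on log2(FPKM + 0.1). The trend with transcript length covers these genes too, and its part in them was not tested. Among the remaining brakes and pocket proteins, 2 of 4 had such a p. Rbl2, a relative of Rb1, had an FPKM of 1.05 and 1.23 in wt 1 and wt 2 and of 5.14, 4.87 and 5.43 in null 1, null 2 and null 3 (log2 fold change 1.59 ± 0.50, SE, adjusted p 0.203). Cdkn1c, which encodes p57, was at 0.05 and 0.07 in the wt libraries and at 9 in null 1, with 0.14 and 0.62 in null 2 and null 3. Null 1 was thus highest for Cdkn1a and Cdkn1c alike.

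Of the 6 other G1 cyclins and kinases, 0 had an unadjusted p under 0.05 in edgeR. Cdk4, the partner of the D cyclins, had an FPKM of 231 and 245.9 in wt 1 and wt 2 and of 326.9, 494.4 and 252.6 in null 1, null 2 and null 3, higher in each null library, but the groups overlapped in CPM after TMM normalization. Cdk6, the other partner, was less abundant, with an FPKM between 4.49 and 6.44. Its CPM after TMM normalization was 15.5 and 21.93 in the wt and 12.27, 9.151 and 10.83 in the null libraries. Of the 6 genes, 3 had a higher FPKM in every null library. In CPM after TMM normalization 1 was higher in every null library (Ccne1) and 1 lower (Cdk6), beside 22.5% and 17.3% of all genes. Of the 10 E2F factors and their partners, 8 had a higher FPKM in every null library, 5 a higher CPM after TMM normalization, and 3 had an unadjusted p under 0.05 (E2f3, E2f7 and E2f8). E2f7, a repressor of the family, had an FPKM of 0.29 and 0.30 in wt 1 and wt 2 and of 1.24, 5.11 and 1.8 in null 1, null 2 and null 3. The median log2 fold change of the E2F list was 1.10.

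Of 10 regulators of p53, 7 had a higher FPKM in every null library, 5 a higher CPM after TMM normalization, and 3 had an unadjusted p under 0.05 (Usp7, Atm and Trp63) in edgeR, with a median log2 fold change of 1.19 (0.77 without null 2). Usp7, a deubiquitinase that acts on MDM2 and p53, had an FPKM of 4.08 and 2.76 in wt 1 and wt 2 and of 13.19, 19.74 and 11.8 in null 1, null 2 and null 3. Trp63, a p53 relative of basal epithelia, was at 0 in both wt libraries and at 0.06, 0.18 and 4.42 in null 1, null 2 and null 3. Mdm4, the partner of MDM2, overlapped between the groups.

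Of 22 known p53 targets besides Cdkn1a and Mdm2, 11 had a higher FPKM in every null library and 0 a lower one, 7 were higher in CPM after TMM normalization, and 5 had an unadjusted p under 0.05 (Ccng1, Trp53inp1, Btg2, Pmaip1 and Perp) in edgeR. Their median log2 fold change was 0.79, and it was 0.43 without null 1, 0.49 without null 2 and 0.32 without wt 2. Ccng1 had an FPKM of 18.99 and 12.73 in wt 1 and wt 2 and of 62.28, 122.8 and 63.27 in null 1, null 2 and null 3. Pmaip1, which encodes the cell death protein NOXA, was at 0.64 and 0.31 in the wt libraries and at 19.41, 4.74 and 20.19 in null 1, null 2 and null 3. The targets did not move as one, since Phlda3, Bax and Bbc3 had their highest FPKM in null 1 and their lowest in null 3. For Bax, a cell death effector, these values were 475.3 and 101.4 against 368.3 and 276.1 in wt 1 and wt 2. Gdf15, a secreted stress factor, had an FPKM of 118.4 and 37.85 in wt 1 and wt 2 and of 1310, 85.61 and 226.9 in null 1, null 2 and null 3, so null 1 led here as for Cdkn1a.

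**Figure D4:**
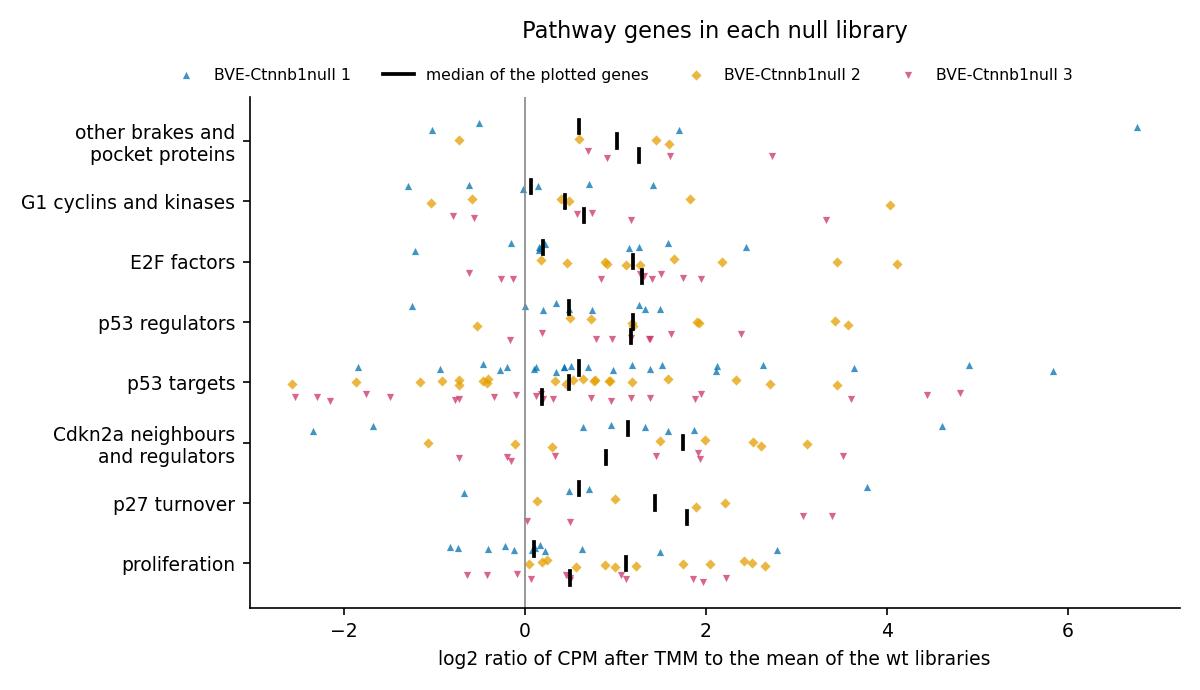
Log2 ratio of the CPM after TMM normalization in each null library to the mean of the wt libraries (horizontal axis) for the genes of 8 pathway lists, 1 point per gene and library, with black bars for the median of the plotted points. Points lie on both sides of 0 in null 1 for every list, and the p53 targets spread on both sides in all 3 null libraries.

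Among 9 neighbours and regulators of Cdkn2a, Bmi1, a Polycomb protein known to repress the locus, had an FPKM of 0.95 and 0.49 in wt 1 and wt 2 and of 1.89, 9.61 and 4.22 in null 1, null 2 and null 3. It was highest in null 2, where Cdkn2a was lowest, and second highest in null 3, where Cdkn2a was highest. Dmtf1, an activator of p19ARF transcription, had an FPKM of 1.09 and 0.35 in wt 1 and wt 2 and of 2.36, 4.3 and 4.05 in null 1, null 2 and null 3. These 2 were the genes of the list with an unadjusted p under 0.05 in edgeR, and Cbx8, another Polycomb gene, was lower in every null library on both scales, with FPKM values of 9.17 and 8.85 against 3.9, 6.73 and 8.47. Of 4 genes of p27 turnover, 2 had such a p, both higher, namely Skp2, the ligase subunit that marks p27 for destruction, and Foxo1, a transcription factor that induces Cdkn1b. Skp2 had an FPKM of 1.05 and 0.8 in wt 1 and wt 2 and of 2.09, 6.63 and 14.88 in null 1, null 2 and null 3. Foxo1 had 0.43 and 0.62 against 10.15, 3.08 and 6.97 in the same order. The part of either gene in the level of Cdkn1b was not tested. Of 12 genes of proliferation, 6 had a higher FPKM in every null library, but 2 did so in CPM after TMM normalization, and 2 had an unadjusted p under 0.05 (Top2a and Mcm4). Their median log2 fold change of 0.72 was 0.09 without wt 1, 1.68 without wt 2 and 0.38 without null 2. In limma on log2(FPKM + 0.1) it was 1.43, next to 0.61 over all genes.

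For the 2 genes with the widest range over the libraries, the genes of the most similar profile were sought among 9880, as the root mean square difference of centred log2(CPM + 1) over the 5 libraries. For Cdkn2a these were Slc43a3 (0.52), Cacna1g (0.79), Lmcd1 (0.80), Lbp (0.99) and Osmr (1.0), which like Cdkn2a were highest in null 3 and next in null 1. For Cdkn1a they were Rps6kb2 (0.10), Cercam (0.14), Erbb2 (0.18), Unc45a (0.19) and Sco2 (0.20), which were highest in null 1 and lowest in null 3. The points are 5 libraries, and the likeness was not tested.

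The labels call the cells thyroid epithelial, and the libraries differed widely in cell type markers. Of 10 thyroid follicular markers, between 3 and 5 had 3 counts or fewer in each library, and the list summed to an FPKM of 15.27 and 20.63 in wt 1 and wt 2 and of 35.18, 68.54 and 4.83 in null 1, null 2 and null 3. Its most abundant gene was the transcription factor gene Nkx2-1 in wt 1, wt 2 and null 2 and Pax8 in null 1 and null 3. Foxe1 and Duox2 were at an FPKM of 0.09 or less in every library. The 8 epithelial markers summed to 1098 and 1774 in wt 1 and wt 2 and to 13360, 705.8 and 1416 in null 1, null 2 and null 3, led by keratins, and Epcam and Cdh1 were at 0 in null 2. The 11 mesenchymal markers summed to 1850 and 3732 in the wt and to 86.8, 3204 and 3757 in the null libraries, led by Vim, and 4 of them were at 0 in null 1. Null 1, with the highest Cdkn1a, thus had the highest epithelial and the lowest mesenchymal sum. The keratins did not move together, since Krt8 was at 634.4 in wt 1 and 201.5 in null 3, and Krt7 at 79.65 and 461.3. In null 3, with the highest Cdkn2a, Thy1, Dcn and Postn reached the values given above, against at most 0.24 in any other library, while Vim was at 1401 against 1478 and 3406 in wt 1 and wt 2, and Lum at 0.02. Leukocyte markers Ptprc, Cd3e and Adgre1 were not listed in any library, and Cd68 led that list with 6.09, 14.2, 59.81, 1 and 39.91 in the order wt 1, wt 2, null 1, null 2 and null 3. The 5 endothelial markers summed to 0.68 or less. The part of these markers in the values of Cdkn1a, Cdkn2a and the p53 targets was not tested. Cdkn2b lies within the span of the non-coding RNA gene Gm12610, and Rb1, Ccnd1 and Ccnd2 also overlap other genes in the RefSeq table, while the use of strand in the counting is not given in the sources used here.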

How the data were processed

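Libraries were made with a TruSeq RNA kit and sequenced on an Illumina HiSeq. For each RefSeq transcript the authors deposited an estimated count (not always a whole number) and a length-scaled FPKM, with rows from 0.01 FPKM upward. Aligner, counting program and build are not given in the sources used here. Samples were grouped by their labels, and replicates were not pooled.

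Estimated counts were summed per NCBI gene number and rounded, and the deposited FPKM was summed likewise. Of 17923 genes, 17866 matched a symbol in the RefSeq table of GRCm38.p6. All 5 libraries were compared with the quasi-likelihood test of edgeR 4.0.16 (R 4.3.3; glmQLFit, glmQLFTest) after TMM scaling and filterByExpr with listed genes kept, with Benjamini-Hochberg adjustment over 13255 genes and a threshold of 0.05. Replicate numbers mark no shared source in the labels, so no block was used. Depth was between 29360002 and 30713079 counts per library, so a gene without counts could reach 3 counts, or 0.098 to 0.102 CPM. This covers counting error only. Alternatives were RLE factors, DESeq2 1.42.0, no count filter or one of 10 counts in each library, trended limma 3.58.1 fits of log2(FPKM + 0.1, 0.01 or 1) with a filter (FPKM of at least 0.5 in 2 libraries) and of log2(FPKM + 0.1) without it, a replicate block and leaving out each library. The 4 length classes and the CPM order were added after seeing the data. Single genes were tested with exact permutations of FPKM (Python 3.11.15, scipy 1.17.1). The fits were also run on simulated counts with 200 changed genes, as a check of the code. The simulated libraries of a group differed less than these libraries do, so this run cannot show how well the fits find changes here. Promoter windows came from RefSeq and first exons from GENCODE.

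The members and lists were chosen with earlier results of these data known. Every member was named in every library, and the 5 most similar profiles were named for the 2 members of widest range. All listed pathway genes with an unadjusted p under 0.05 were named. Of those whose groups do not overlap only some were named, and the values of E2f1, Tfdp1 and Ercc5, for example, were not given. Other listed genes (such as Cdk4, Cdk6, Ccnd3, Mdm4, Bax, Gdf15 and Mtap) were named after their values were seen. No set test was run. Comparisons by the authors, and their experiments in mice, were not used here.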

Additional observations from a re-analysis of the deposited data

How the results depend on the processing

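Of the 10 genes, 0 were called by edgeR or limma under any alternative run, and DESeq2 called 2 (Cdkn2a, adjusted p = 0.0103, and Rb1, adjusted p = 0.000201). Over all genes, DESeq2 called 1113 higher and 486 lower, against 0 and 0 for edgeR. Limma with its filter called 1 higher gene with each pseudocount (Aqp1) and 5, 2 and 7 lower genes with 0.1, 0.01 and 1 added (Crabp1 among them each time, and not all have a symbol), but 0 higher and 0 lower without that filter (2397 and 414 at an unadjusted p under 0.05). Without a filter on low counts edgeR called 4 lower genes (Crabp1, Car9, Ubb-ps and 1 without a symbol), and with at least 10 counts in every library 1 (Crabp1). These names were chosen after their values were seen. In CPM after TMM normalization 1 of the 10 genes (Cdkn1b) was lower in every null library, against 0 in FPKM. The cause of these differences was not tested.

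Leaving out single libraries kept each count of calls at 0, and where it left 1 wt library that library was assumed to vary like the null ones. The log2 fold change then lay between -0.96 and 0.74 for Cdkn1a, -0.59 and 0.29 for Trp53, -0.26 and 0.65 for Ccnd1, -0.68 and 0.60 for Ccnd2, 2.69 and 5.55 for Cdkn2a, -0.99 and -0.25 for Cdkn2b, 0.86 and 1.72 for Cdkn2c, -1.11 and -0.61 for Cdkn1b, 1.19 and 1.79 for Mdm2 and 2.68 and 3.05 for Rb1. Trp53 also turned from -0.10 to 0.23 in the 4 limma fits, and with 0.1 added Ccnd1 was at 0.37 and Ccnd2 at 0.61. With the replicate number as a block, edgeR called 0 genes higher and 0 lower, 946 and 551 genes had an unadjusted p under 0.05 against 1646 and 805, and Trp53 was at 0.34, Ccnd1 at 0.71, Cdkn2a at 1.10, Cdkn2b at -1.09, Cdkn2c at 0.44, Rb1 at 3.09 and Mdm2 at 1.83. The deviations of same-numbered libraries from their group means had a correlation of -0.125 (wt 1 and null 1) and -0.118 (wt 2 and null 2) over genes. With 2 wt libraries, their deviations mirror each other, so these values cannot show whether the samples were paired. By FPKM the p16INK4a share of Cdkn2a in null 3 was 18.68%. Depth limits the p16INK4a share in the libraries with 78 to 170 Cdkn2a counts, and Rb1 in the wt libraries with 30 and 33 counts.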
